A study of Mus musculus with 21 samples.

Results

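The comparison described here sets the TWIST1 monomer line before induction against the parental A2loxCre line, with 3 samples of each, 6 of the 21 samples and 2 of the 7 groups of the series. Both groups were embryoid bodies, aggregates in which mouse embryonic stem cells differentiate, collected on day 3, and the labels give the strain of every sample as C57BL/6. The parental samples carry no Twist1 cassette and had doxycycline for 16 h. The uninduced monomer samples carry an integrated Twist1 monomer cassette and had no doxycycline, so that line and doxycycline differ together between the groups. A further group, the same monomer line with doxycycline for 16 h (the induced monomer line, 3 samples), is set beside them because it matches the parental samples in doxycycline. Members were the samples whose titles name these groups, and all 48321 listed gene symbols were considered. The labels do not say whether samples 1 to 3 came from separate cultures or whether a line is 1 clone, so p-values measure only the spread between these samples, which may be technical.

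A2loxCre cells hold an exchange site next to Hprt on the X chromosome, behind a promoter that the doxycycline-dependent activator rtTA, made from the Rosa26 locus, can switch on. A coding sequence is placed there by Cre recombination, and before exchange the site holds Cre itself. Around day 3, embryoid bodies pass from an epiblast-like state, the pluripotent tissue from which the embryo arises, toward primitive streak, the site of gastrulation where epiblast cells become mesoderm and definitive endoderm. WNT and NODAL signals drive that step and T (Brachyury) marks it. Primitive endoderm is a separate, earlier lineage, which lines the outside of embryoid bodies, yields visceral and parietal endoderm, and makes basement membrane.

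Abundances are given as CPM, counts relative to the sample total scaled by library size and TMM factors. Of the 48321 symbols, 13499 had enough counts to be tested. Total counts ranged from 6648842 to 10326871 over the 6 samples and from 8913574 to 9398646 in the induced monomer line. A count of 3, taken as the limit of detection, amounted to 0.2905 to 0.4512 CPM in the 6 samples. Uninduced sample 1, the shallowest, stood apart in 7 of 7152 genes with a mean above 20 CPM, each over 2-fold from samples 2 and 3. They include Lars2 and the mitochondrial ribosomal RNA mt-Rnr2, and they made up 5.8% of its counts against 0.287% to 0.415% in the 8 other samples. Lars2 stood at 1350.1, 2011 and 1840.2 CPM in parental samples 1 to 3 and at 32600.0, 1684 and 1226 CPM in uninduced samples 1 to 3. Its log2 difference of 2.77 became -0.26 without uninduced sample 1 (edgeR, adjusted p = 0.0036 and 0.083), and it is not called here. Twist1 checks the labels. It stood at 8.86, 7.95 and 7.31 CPM in parental samples 1 to 3, 4.34, 5.57 and 5.13 CPM in the uninduced and 642, 601 and 580.1 CPM in the induced monomer samples. Reads from the cassette and from the endogenous gene cannot be told apart. Without doxycycline the level was below the parental one, with a log2 difference of -0.65 ± 0.13 SE (edgeR quasi-likelihood test, adjusted p = 4.3e-04), and the groups did not overlap.

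Between the uninduced monomer line and the parental line, 5176 of 13499 tested genes (38.3%) differed at an adjusted p under 0.05 in edgeR's quasi-likelihood test with Benjamini-Hochberg adjustment. Such genes are said to pass, to have risen where they were higher in the uninduced monomer line and to have fallen where lower. Of all tested genes, 2687 (19.9%) rose and 2489 (18.4%) fell. The counts of each gene list below are to be read beside these shares. Scaled by library size alone, 5187 passed and the split was 1938 higher and 3249 lower. The median change of the passing genes was 0.427 on the log2 scale. A change of at least 2-fold was reached by 808 (5.99%), of which 470 (3.48%) were higher and 338 (2.5%) lower. The 3 samples of one line lay entirely above or below those of the other for 6532 tested genes (48.4%). Without uninduced sample 1, 4582 genes passed.

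The largest falls were in genes of the primitive streak and of WNT signalling, plus Hprt. Of the 12 largest, Evx1, T and Mixl1 encode transcription factors of the streak, Wnt3, Wnt8a and Rspo3 encode secreted WNT activators, and Sp5 and Sp8 encode zinc-finger factors induced by WNT. The others were Nkx1-2, a homeobox gene of posterior epiblast, Fst, an activin-binding inhibitor, Hprt and Lzts1. Log2 differences ran from -4.98 (Evx1) to -3.00 (Lzts1). The largest rises were more mixed, from 3.15 (Pou4f2) to 2.34 (Klb). They include Cubn, the endocytic receptor of visceral endoderm (2.48), Mras, a RAS-related GTPase (3.14), Htra1, a secreted protease (2.52), and Srgn, a granule proteoglycan (2.51). Spock1 (2.87), Nrg2 (2.42), Ankrd33b (2.39) and Tcf23 (2.35) make up the rest that are named. Only passing genes whose groups did not overlap entered this ranking. Their separation was thus a condition of choice and not a result, here and where these genes are described below.

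**Figure D1:**
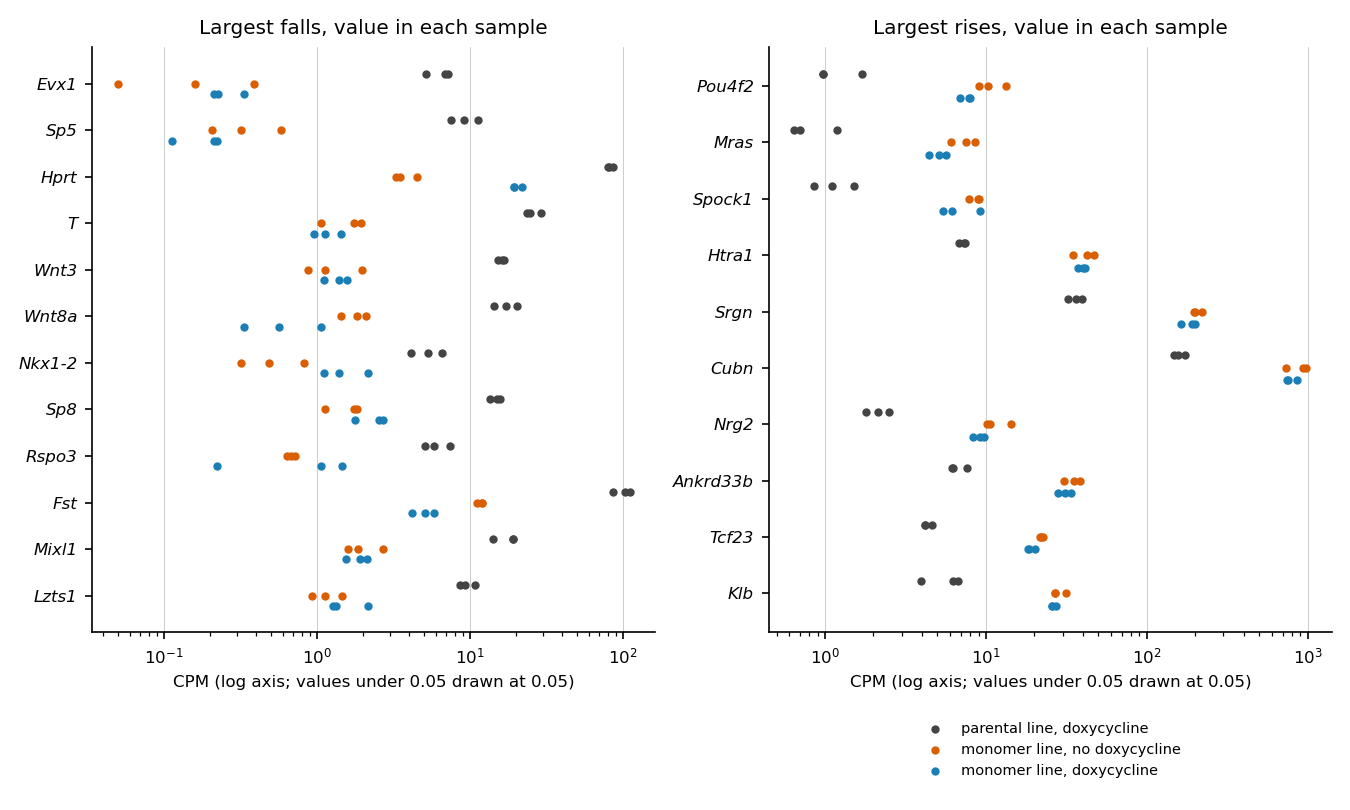
CPM of every sample, on a log axis, for the named genes with the largest falls and rises between the parental and the uninduced monomer line, with the induced monomer samples beside them. Points are single samples, and the genes were chosen among those whose 3 parental and 3 uninduced samples do not overlap. For T the parental samples lie at 23.4, 29.2 and 24.8 CPM and the uninduced at 1.93, 1.75 and 1.06 CPM.

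By the smallest p-values, the leading rises were 3 genes of basement membrane, Col4a2, Lama1 and Col4a1, and the leading falls were Hprt, Fst and Eomes. Lama1, an alpha chain of laminin (ENSMUSG00000032796, chr17:67697259-67822647, plus strand, GRCm38), stood at 129, 126 and 138 CPM in the parental and 563, 652 and 592 CPM in the uninduced samples. The log2 difference was 2.20 ± 0.061 SE (edgeR, adjusted p = 9.8e-17). Col4a1 and Col4a2, the paired alpha chains of collagen IV, start 21 bases apart on opposite strands, and the strand used in counting is not given in the sources used here. Col4a2 stood at 117, 109 and 113 CPM in the parental and 441, 477 and 419 CPM in the uninduced samples, every uninduced value above every parental one. Fst stood at 86.5, 110.5 and 103 CPM and 12.1, 11.04 and 11.997 CPM in the same order, a log2 difference of -3.10 ± 0.10 SE (edgeR, adjusted p = 1.2e-15), with no overlap.

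**Figure D2:**
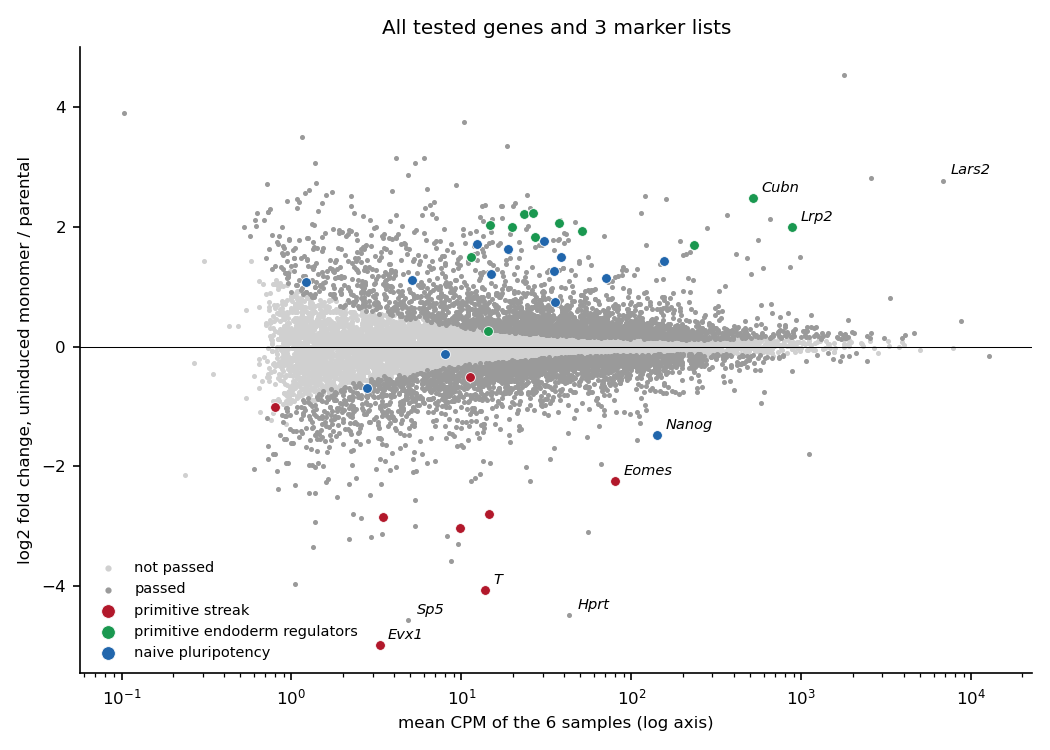
Log2 difference of the uninduced monomer line from the parental line (vertical axis) against the mean CPM of the 6 samples (log axis) for the 13499 tested genes, with the 5176 that passed in dark grey and 3 marker lists in colour. Primitive streak genes such as T (-4.07) lie at the lower edge with Sp5 (-4.57) and Hprt (-4.48), and primitive endoderm genes such as Cubn (2.48) lie above 0; Lars2, at upper right, is the gene set by uninduced sample 1.

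Most primitive streak genes that could be tested fell. Of 11 listed, 8 had enough counts to be tested; 7 fell and none rose (Mesp2, log2 difference -1.01, did not pass), against 18.4% of all tested genes that fell, and the median log2 difference was -2.82 against -3.36e-05 over all tested genes. Mesp1, Tbx6 and Msgn1, which mark nascent and presomitic mesoderm, were too low to test. The summed level of the list was 208.9 to 249.9 CPM in the parental and 43.74 to 51.08 CPM in the uninduced samples.

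T, the T-box factor that defines the streak and nascent mesoderm (ENSMUSG00000062327, chr17:8434423-8442496, plus strand, GRCm38), stood at 23.4, 29.2 and 24.8 CPM in parental samples 1 to 3 and 1.93, 1.75 and 1.06 CPM in uninduced samples 1 to 3. All uninduced values lay far below all parental ones, with a log2 difference of -4.07 ± 0.18 SE (edgeR, adjusted p = 1.5e-13). Eomes, a related T-box factor needed for definitive endoderm and early mesoderm, stood at 125, 142 and 129 CPM and 27.3, 23.9 and 32.1 CPM in the same order (-2.24 ± 0.082 SE). Mixl1, a homeobox factor of mesendoderm, stood at 14.1, 19.003 and 19.1 CPM and 1.61, 1.86 and 2.71 CPM (-3.03 ± 0.19 SE). Neither gene's samples overlapped between the lines. Evx1, a homeobox gene of the posterior streak, stood at 5.18, 6.87 and 7.21 CPM in the parental samples and 0.161, 0 and 0.387 CPM in the uninduced ones. Its values in the monomer line are at or near the floor of 3 counts, so the size of its fitted log2 difference, -4.98, follows the prior count of the fit and is no bound. An antisense gene shares its locus. Gsc, which marks the anterior streak, stood at 4.86, 7.84 and 5.61 CPM and 0.965, 0.826 and 0.774 CPM (-2.84 ± 0.29 SE). Fgf8, a growth factor that mesoderm cells need to leave the streak, stood at 22.4, 27.3 and 26.03 CPM and 4.18, 3.71 and 3.19 CPM (-2.79 ± 0.14 SE). Lhx1, of anterior mesendoderm, fell least (-0.51, adjusted p = 0.014). In these bulk samples fewer cells of a type and less RNA per cell cannot be told apart.

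WNT ligands, their R-spondin enhancers and receptors fell more often than they rose. Of 23 tested genes of 28 listed, 13 fell and 4 rose (6 did not pass), with a median log2 difference of -0.542. Over all tested genes 18.4% fell and 19.9% rose. Wnt3, the ligand required to form the streak, stood at 16.3, 16.6 and 15.3 CPM in parental and 1.13, 1.96 and 0.871 CPM in uninduced samples. The log2 difference was -3.58 ± 0.20 SE (edgeR, adjusted p = 5.9e-12), with no overlap. Wnt8a stood at 14.4, 20.4 and 17.1 CPM and 2.09, 1.45 and 1.84 CPM in the same order (-3.29 ± 0.21 SE), and Rspo3 at 5.08, 7.41 and 5.81 CPM and 0.643, 0.722 and 0.677 CPM (-3.13 ± 0.33 SE). For both genes the lines were fully apart, as the ranking above required. Wnt5b also fell (-2.05), whereas Wnt6 (2.61) and Wnt11 (1.08) rose. Wnt6 stood at 0.324, 0.322 and 0.4 CPM in the parental samples, near the floor of 3 counts, so the size of its difference is no bound. Among receptors, Fzd10 (-1.23), Lgr5 (-1.50), Fzd3 (-0.85) and the co-receptor Lrp6 (-0.44) fell, while Fzd5 (0.66) rose.

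Genes that respond to WNT through TCF and LEF factors were divided. Of 12 tested genes, 6 fell (Sp5, Sp8, Axin2, Nkd1, Tcf7 and Znrf3) and 3 rose (Dkk1, Notum and Lef1), with a median of -0.407. Over all tested genes 18.4% fell and 19.9% rose. Axin2, a scaffold of the beta-catenin destruction complex and a common readout of WNT signalling, stood at 34.6, 41.01 and 40.1 CPM in the parental samples and 9.97, 8.98 and 9.77 CPM in the uninduced ones. The log2 difference was -2.02 ± 0.098 SE (edgeR, adjusted p = 7.6e-13) and the groups did not overlap. Dkk1, a secreted inhibitor of the WNT co-receptors LRP5 and LRP6, moved the other way, from 5.18, 4.72 and 4.71 CPM to 14.8, 18.9 and 14.6 CPM (1.73 ± 0.15 SE). Notum, an enzyme that inactivates WNT proteins, rose by 1.66 ± 0.26 SE. Znrf3, which clears Frizzled receptors, was close to the threshold (-0.25, adjusted p = 0.0496).

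Sp5 fell most in this list. It stood at 7.56, 11.3 and 9.21 CPM in parental samples 1 to 3 and 0.322, 0.206 and 0.58 CPM in uninduced samples 1 to 3, a difference of -4.57 ± 0.30 SE (edgeR, adjusted p = 8.0e-11) without overlap. The uninduced values lie near the floor of 3 counts, so the size of this difference is no bound either. Promoter windows were available for 11 of the 14 listed genes and not for Znrf3. Among the other genes of this list that fell, only Sp5 held the core bound by TCF and LEF factors in the 250 bases before the start. Its promoter is therefore shown. The window is chr2:70474673-70474922 on the plus strand (RefSeq, GRCm38.p6), overlapping no GENCODE exon, and the capitals mark CTTTGAT or CTTTGTT read on either strand.

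Sp5 promoter: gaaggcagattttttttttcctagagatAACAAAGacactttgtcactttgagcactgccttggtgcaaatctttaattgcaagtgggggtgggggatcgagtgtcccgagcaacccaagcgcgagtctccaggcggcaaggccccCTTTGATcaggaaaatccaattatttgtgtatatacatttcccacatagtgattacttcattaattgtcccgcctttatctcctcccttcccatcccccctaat

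The 2 matches start 222 and 104 bases before the start of Sp5. The same search found a match in 8.06% of 32851 windows of all promoters, in 5.52% of the 12694 windows of tested genes (9869 of which matched by symbol), in 6.69% of those of genes that fell and in 5.48% of those of genes that rose. Of the primitive streak list, 2 of 9 windows held one, those of Mesp1 and Msgn1. Those of T, Evx1, Eomes and Axin2 did not. The promoter of Dkk1, which rose, held 1 match, 98 bases before its RefSeq start. That window, chr19:30549497-30549746 on the minus strand, overlaps the Dkk1 gene as GENCODE annotates it, up to 30549665, and the match lies inside that gene. The match of Mesp1 likewise lies inside its GENCODE gene, which reaches 79793788 on chromosome 7. A match is a run of letters and not a shown binding site.

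Nodal pathway genes moved in both directions and by less. Of 16 tested, 7 fell and 6 rose, against 18.4% and 19.9% of all tested genes, with a median of -0.15. Nodal, the ligand, stood at 80.998, 85.2 and 75.4 CPM in the parental and 46.5, 43.03 and 41.02 CPM in the uninduced samples, a log2 difference of -0.90 ± 0.073 SE (edgeR, adjusted p = 2.8e-09) with no overlap. Cer1, a secreted inhibitor of NODAL, BMP and WNT, fell further, from 3.67, 5.69 and 2.403 CPM to 0.804, 1.14 and 0.58 CPM (-2.20 ± 0.35 SE). Lefty1 (0.55) and Lefty2 (0.40), feedback inhibitors of NODAL, rose, as did Gdf3 (0.38), while the co-receptor Tdgf1 (-0.30) and the mediator Foxh1 (-0.26) fell.

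FGF pathway genes mostly rose. Of 20 tested, 12 rose and 3 fell (Fgf8, Fgf5 and Fgfr1), against 19.9% and 18.4% of all tested genes. Fgf4, the ligand that naive cells make to leave that state and to specify primitive endoderm, stood at 53.4, 49.2 and 51.3 CPM in the parental and 130.1, 136 and 118 CPM in the uninduced samples. It rose by 1.32 ± 0.064 SE (edgeR, adjusted p = 7.1e-13), all uninduced values above all parental ones. Fgf5, a marker of post-implantation epiblast, stood at 179, 168 and 169 CPM and 101, 97.8 and 108 CPM in the same order (-0.74 ± 0.054 SE). Among receptors, Fgfr4 (1.73) and Fgfr3 (0.92) rose and Fgfr1 (-0.74) fell. The feedback inhibitors Spry4 (0.58), Spry2 (0.35), Dusp4 (0.41) and Dusp6 (0.18) rose by small amounts, and Spry1 (-0.029), Spred1 (-0.014) and Spred2 (-0.10) did not pass. Dusp6 did not pass when scaled by library size alone or in the fit of all 21 samples.

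BMP pathway genes moved in both directions. Of 21 tested, 5 rose and 8 fell, against 19.9% and 18.4% of all tested genes. The share that rose was near that of all tested genes. The ligands Bmp2 (1.12), Bmp4 (1.15) and Bmp6 (1.50) rose, Bmp7 (-0.76) fell and Gdf6 (0.60) did not pass. Bmp4 stood at 4.86, 3.22 and 5.21 CPM in the parental and 10.1, 10.6 and 8.997 CPM in the uninduced samples. Msx1 (-1.48), Id3 (-0.91) and Smad7 (-0.47), which BMP signals induce, fell, as did the mediator Smad1 (-0.80). Id2 rose (0.27, adjusted p = 0.022), and Id1 (-0.11), Id4 (-0.15), Msx2 (0.35) and Bambi (-0.15) did not pass.

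Most primitive endoderm genes rose. Of the 12 regulators and early markers listed, 11 rose and none fell, against 19.9% and 18.4% of all tested genes. Foxa2 did not pass (0.26). The median of the 12 genes was 1.99. Their summed level was 678.6 to 762.8 CPM in the parental and 2567 to 3369 CPM in the uninduced samples. Gata6, the factor that specifies the lineage (ENSMUSG00000005836, chr18:11052064-11085635, plus strand, GRCm38), stood at 10.5, 13.3 and 12.2 CPM in parental samples 1 to 3 and 42.5, 48.6 and 36.6 CPM in uninduced samples 1 to 3. The rise was 1.82 ± 0.12 SE (edgeR, adjusted p = 6.2e-11), and the groups did not overlap. Gata4, which follows Gata6 in the lineage, stood at 22.2, 21.04 and 20.6 CPM and 79.1, 88.4 and 74.8 CPM in the same order (1.92 ± 0.078 SE). Pdgfra, the PDGF receptor that serves as surface marker of the lineage, stood at 8.32, 9.66 and 9.91 CPM and 40.04, 49.7 and 40.4 CPM (2.23 ± 0.11 SE). Dab2, an endocytic adaptor needed to sort these cells to the surface, stood at 107, 118 and 107 CPM and 331, 381 and 359.9 CPM (1.70 ± 0.058 SE). Both genes were higher in each uninduced sample than in any parental one. The factors Sox17 (1.49), Sox7 (1.99) and Hnf4a (2.02) rose with the endocytic receptor genes Lrp2 (1.99), Amn (2.07) and Cubn (2.48). Cubn stood at 147, 174 and 156 CPM in the parental and 736, 983 and 931 CPM in the uninduced samples.

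Products of visceral endoderm rose less evenly. Of 9 tested genes, 7 rose, against 19.9% of all tested genes, and Slc39a8 fell (-0.21). The median was 0.687, and Rbp4 did not pass (-0.53). Ihh, a hedgehog ligand of visceral endoderm, stood at 2.05, 1.72 and 2.503 CPM in the parental and 9.17, 12.1 and 7.84 CPM in the uninduced samples (2.20 ± 0.20 SE). Apoe, a lipid carrier, rose by 0.69 ± 0.06 SE, and Ttr, a thyroid hormone carrier, by 0.48 ± 0.14 SE. Afp, Apoa1 and Apoa2, products of mature visceral endoderm, were too low to test.

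Parietal endoderm and basement membrane genes also rose. Of 15 tested, 13 rose and Lama5 fell (-0.52), against 19.9% and 18.4% of all tested genes, and Thbd did not pass (0.35). The median was 1.12, and the sum ran from 2052 to 2209 CPM in the parental and from 4853 to 5347 CPM in the uninduced samples. All 3 chains of laminin-111 were among the genes that rose, Lama1 (2.20), Lamb1 (1.02) and Lamc1 (1.21). So were the nidogens Nid1 (1.12) and Nid2 (0.53), which link laminin to collagen IV, and perlecan, Hspg2 (1.11). Sparc, a matrix protein abundant in parietal endoderm, stood at 269, 242 and 254 CPM in the parental and 696, 763 and 667 CPM in the uninduced samples (1.47 ± 0.061 SE). Pth1r, an early receptor of parietal endoderm, stood at 8.86, 7.73 and 8.21 CPM and 30.2, 32.8 and 28.1 CPM (1.88 ± 0.10 SE). The samples of the lines were apart for both.

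Genes of definitive endoderm, the streak-derived endoderm, did not move together. Of 8 tested, Sox17 and Hhex (1.05), which primitive endoderm also expresses, rose, and Cer1 and Trh (-1.80) fell. These shares were near those of all tested genes, 19.9% and 18.4%. Foxa2, Cxcr4 (-0.53), Foxa1 (-0.73) and Foxa3 (0.39) did not pass.

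**Figure D3:**
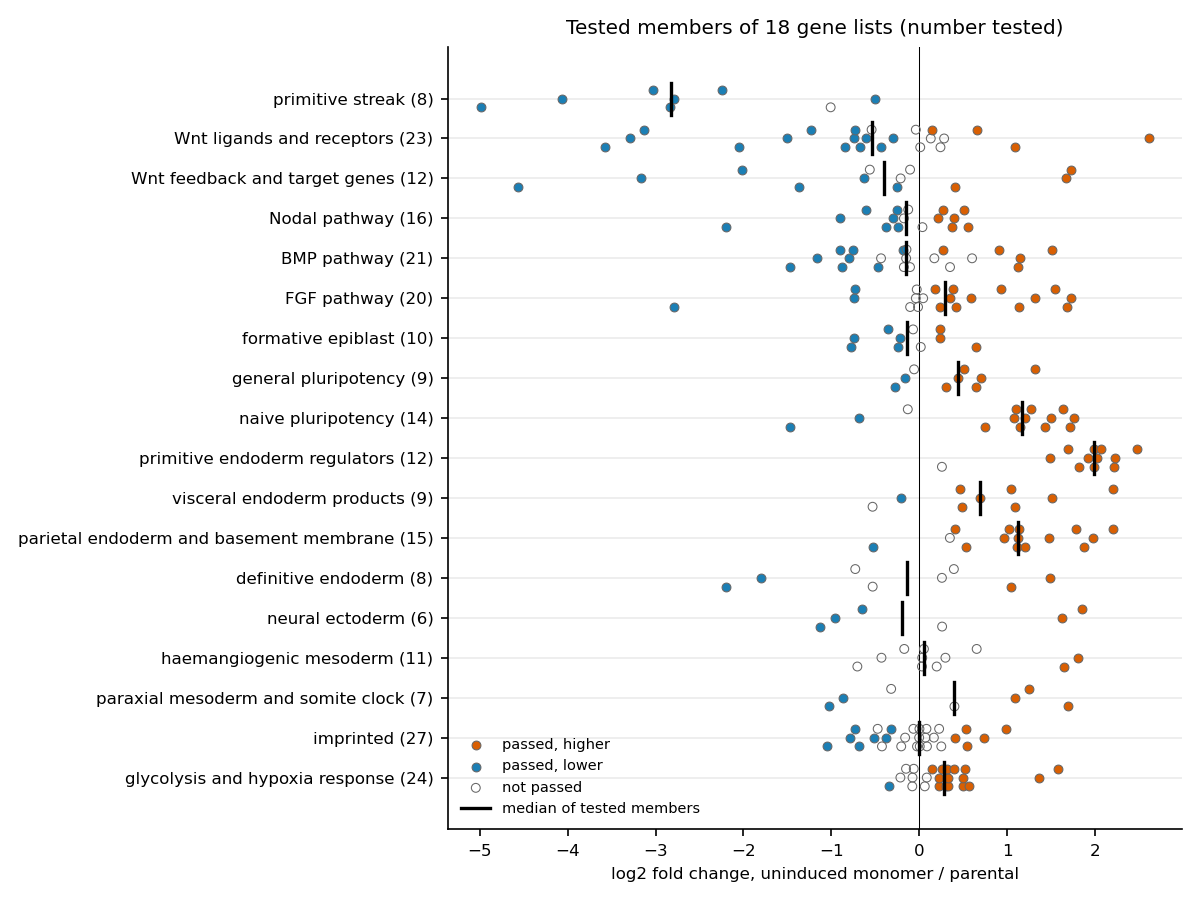
Log2 difference of the uninduced monomer line from the parental line (horizontal axis) for each tested gene of 18 lists, 1 row per list, filled where the gene passed and open where it did not; the black bar is the median of the list's tested genes. Primitive streak genes lie to the left (median -2.82), primitive endoderm regulators (1.99) and basement membrane genes (1.12) to the right, and the Nodal list lies on both sides of 0.

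Most naive pluripotency genes rose, but Nanog fell. Of 14 tested, 11 rose and 2 fell (Nanog and, near the threshold, Dppa3, edgeR adjusted p = 0.046), against 19.9% and 18.4% of all tested genes. The median was 1.17, and the summed level was 425.3 to 486.1 CPM in the parental and 667.3 to 703.5 CPM in the uninduced samples. Nanog, a homeobox factor of naive cells that is also made in the posterior epiblast (ENSMUSG00000012396, chr6:122707489-122714633, plus strand, GRCm38), stood at 209, 216 and 201 CPM in parental samples 1 to 3 and 77.99, 69.2 and 78.3 CPM in uninduced samples 1 to 3. The log2 difference was -1.47 ± 0.063 SE (edgeR, adjusted p = 9.3e-14) with no overlap. Klf4, Klf5 and Esrrb, transcription factors of the naive network, moved the other way. Klf4 stood at 5.08, 4.94 and 7.01 CPM and 21.9, 17.03 and 17.995 CPM in the same order (1.71 ± 0.14 SE), Klf5 rose by 1.49 ± 0.072 SE and Esrrb by 1.14 ± 0.10 SE. Zfp42 (Rex1), a common reporter of the naive state, stood at 73.4, 93.1 and 85.3 CPM and 228, 231 and 217 CPM (1.43 ± 0.078 SE). Nr0b1 (1.76), Tbx3 (1.63), Tfcp2l1 (1.27), Nr5a2 (1.21) and Klf2 (0.74) rose too.

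Factors shared by naive and primed cells differed less. Pou5f1 (Oct4) stood at 622, 558 and 559 CPM in the parental and 578, 577 and 515 CPM in the uninduced samples, which overlapped, and did not pass (-0.059 ± 0.06 SE, adjusted p = 0.47). Sox2 rose by 0.31 ± 0.049 SE. Of the 9 tested genes of this list 6 rose and 2 fell (Lin28a, -0.28, and Sall4, -0.17), against 19.9% and 18.4% of all tested genes. The largest rise was that of Dppa5a (1.31). Of 10 genes of formative epiblast, the stage between the naive and the primed, 3 rose and 5 fell, beside the same 2 shares of all tested genes. Pou3f1 (0.65) rose, Fgf5 (-0.74), Zic2 (-0.78) and Otx2 (-0.21) fell, and Foxd3 (0.017) and Sox3 (-0.07) did not pass.

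Markers of other cell types showed no uniform shift. Their counts stand beside the 19.9% of all tested genes that rose and the 18.4% that fell. Of 6 tested neural genes, Hesx1 (1.85) and Sox21 (1.62) rose and Nes (-1.12), Zic1 (-0.96) and Pax6 (-0.65) fell. Of 11 haemangiogenic genes, which mark blood and vessel precursors, Runx1 (1.65) and Cdh5 (1.81) rose, a share near that of all tested genes. Kdr (-0.43) and Tal1 (0.053) did not pass. Among 7 paraxial mesoderm genes, Tcf15 (1.69), Dll1 (1.25) and Cyp26a1 (1.09) rose while Dll3 (-0.87) and Pcdh8 (-1.02) fell. Of the 4 trophoblast genes tested, Esx1 rose (0.68, adjusted p = 0.048) and Tfap2c fell (-0.69). Of 6 feeder fibroblast genes, Postn (1.18) and Dcn (1.03, adjusted p = 0.049) rose, Thy1 (-0.54) fell, and the fibrillar collagens Col1a1 (0.14), Col1a2 (0.36) and Col3a1 (0.46) did not pass. Summed, the feeder list stood at 37.37 to 45.55 CPM in the parental and 40.25 to 44.54 CPM in the uninduced samples, ranges that overlap.

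Cadherins and factors of epithelial-to-mesenchymal transition, which accompanies exit from the streak, were divided. Of 15 tested, 4 rose and 7 fell, against 19.9% and 18.4% of all tested genes. Cdh2, N-cadherin, stood at 43.4, 39.7 and 40.5 CPM in the parental and 19.6, 23.01 and 23.8 CPM in the uninduced samples (-0.88 ± 0.082 SE). Cdh1, E-cadherin, also fell (-0.41 ± 0.044 SE), as did Zeb2, a repressor of Cdh1 (-1.79), and Vim, an intermediate filament protein (-0.24). Fn1, fibronectin, rose (0.31), and Snai1 did not pass (-0.14). Among Twist1's partners and their inhibitors, the E-protein genes Tcf4 (-0.51) and Tcf12 (-0.28) fell and Tcf3 (-0.095) did not pass.

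Several genes that set or erase DNA methylation rose, and others fell. Dnmt3l, a cofactor of the de novo methyltransferases that is high in naive cells, stood at 63.2, 62.9 and 61.5 CPM in the parental and 154, 161 and 145 CPM in the uninduced samples (1.30 ± 0.059 SE), without overlap. Tet2, an enzyme that oxidises methylcytosine, rose by 1.32 ± 0.18 SE. Dnmt1 (0.027) did not pass. Of the 7 tested genes of the list 4 rose and 1 fell (Tdg), against 19.9% and 18.4% of all tested genes. The de novo methyltransferase genes counted in the formative list were divided, Dnmt3a higher (0.23) and Dnmt3b lower (-0.24). Dnmt3b stood at 2658, 2586 and 2681 CPM in the parental and 2203, 2171 and 2322.5 CPM in the uninduced samples. Imprinted genes, which are expressed from 1 parental allele, were mixed, with 5 of 27 tested higher and 7 lower, shares near the 19.9% and 18.4% of all tested genes. The 3 listed noncoding transcripts made from the maternal Dlk1-Meg3 domain fell by similar amounts, Meg3 (-0.69 ± 0.084 SE), Rian (-0.73 ± 0.047 SE) and Mirg (-0.78 ± 0.087 SE), whereas the paternal Dlk1 (0.25) did not pass. Meg3 stood at 147, 185 and 160.4 CPM and 95.7, 91.6 and 117 CPM. Nnat (0.98) and Cdkn1c (0.74) rose, and H19 (-0.0013) and Peg3 (-0.026) did not pass.

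Glycolysis and hypoxia response genes mostly rose by small amounts. Of 24 tested, 16 rose and Slc2a1 fell (-0.35), against 19.9% and 18.4% of all tested genes. Scaled by library size alone, 14 rose and 2 fell. Aldoa (0.53), Pgk1 (0.50) and the glucose transporter Slc2a3 (0.57) were typical, and Ldha (0.063) did not pass. Vegfa, a vessel growth factor also made by endoderm, rose most, from 7.34, 6.23 and 6.91 CPM in the parental to 16.9, 19.7 and 23.6 CPM in the uninduced samples (1.58 ± 0.13 SE), followed by the collagen prolyl hydroxylase P4ha1 (1.36). Of 15 p53 target genes, 4 rose, a share near the 19.9% of all tested genes, none fell, and Cdkn1a (0.091) did not pass; with library size alone 3 rose and 1 fell. In the amino-acid stress response 4 of 12 tested genes fell, against 18.4% of all tested genes. These were Pck2 (-0.77), Psat1 (-0.56), Asns (-0.34) and Mthfd2 (-0.34), while Ddit3 (0.39) did not pass. Of the 13 protein genes of the mitochondrial genome, 6 rose, against 19.9% of all tested genes, among them mt-Co1 (0.43) and mt-Nd5 (0.44). Neither of these 2 genes passed in the fit of all 21 samples.

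Hprt, which encodes a purine salvage enzyme (chrX:52988137-53021659, plus strand, GRCm38), had the smallest p-value of all tested genes. It stood at 85.3, 80.3 and 80.6 CPM in parental samples 1 to 3 and 4.502, 3.51 and 3.29 CPM in uninduced samples 1 to 3, a log2 difference of -4.48 ± 0.10 SE (edgeR, adjusted p = 6.7e-18). In the induced monomer samples it stood at 22.001, 19.4 and 19.5 CPM, between the other groups and apart from both, with a log2 difference of -2.02 from the parental line. In the other lines of the series with a cassette and doxycycline it ranged from 5.811 CPM in the TCF12 dimer to 32.56 CPM in the TCF4 dimer, while the parental samples, scaled over all 21, lay at 81.09 to 86.11 CPM. The parental line, without a Twist1 cassette, was thus the highest group of the 7.

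Several genes near Hprt fell too, and others did not. Of the 10 annotated protein-coding genes on either side, 12 were tested, 6 fell and 2 rose, against 18.4% of all tested genes, and 25.1% of those on the X chromosome, that fell. At least 2-fold lower were 4 of the 12, against 2.5% of all tested genes. Phf6, the nearest gene upstream, which ends 31.2 kb from the Hprt start, stood at 89.7, 92.2 and 95.4 CPM in the parental and 59.2, 59.9 and 64.7 CPM in the uninduced samples (-0.59 ± 0.06 SE). Hs6st2, a heparan sulphate sulphotransferase gene on the minus strand, lies far upstream, its lower coordinate at -1601 kb from the Hprt start. It fell further (-1.29 ± 0.11 SE), from 20.1, 23.4 and 23.6 CPM to 8.68, 8.88 and 9.68 CPM. Between them, the glypican genes Gpc3 (0.39) and Gpc4 (0.22) rose. Downstream, Fam122b (0.12) and Mospd1 (0.14) did not pass, and further off Zfp36l3 (-1.28) and Xlr (-1.75), a gene of a multicopy family, fell with 1700013H16Rik (-1.76). Xlr stood at 0.482, 0.826 and 0.58 CPM and 1700013H16Rik at 0.804, 0.619 and 0.774 CPM in the uninduced samples. Both lie near the floor of 3 counts, so the sizes of these 2 differences are no bound. In the induced line 8 of the 12 were below the parental line and 0 above it, with a median of -0.794, against 16.7% of all tested genes lower. Among the 8 were Gpc3 (-0.21, edgeR adjusted p = 0.024), Fam122b (-0.81, adjusted p = 5.8e-06) and Ccdc160 (-1.38, adjusted p = 1.9e-04). Ccdc160 did not pass in the uninduced line (0.11). Between the states of the monomer line 5 of the 12 were lower with induction and 0 higher, against 2.27% of all tested genes lower.

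**Figure D4:**
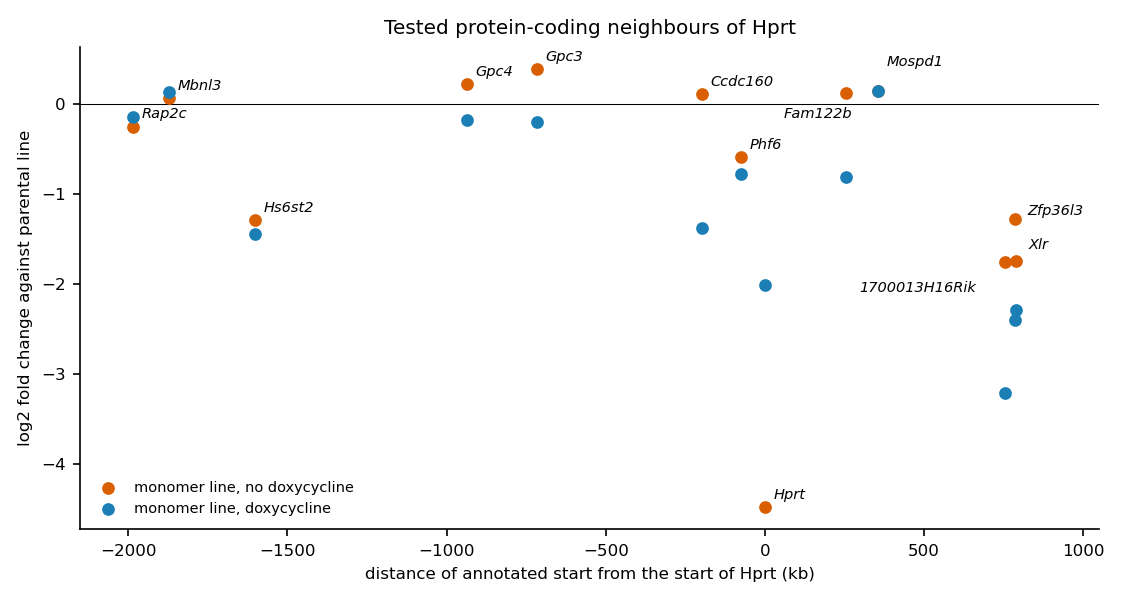
Log2 difference from the parental line for Hprt and the tested genes around it, for the uninduced and the induced monomer line. The horizontal axis is the distance in kb of each gene's lower coordinate from the Hprt start. For genes on the minus strand that coordinate is the end of the gene, although the axis calls it the start. Hprt lies at -4.48 and -2.02, and its tested neighbours lie on both sides of 0 in the uninduced line.

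Some chromosomes differed as a whole by small amounts. On chromosome 8, 32.7% of 707 tested genes fell and 14.3% rose, with a median log2 difference of -0.107. On chromosome 14, 32.8% of 454 rose and 16.1% fell (median 0.0694). On the X chromosome 25.1% of 467 fell and 16.5% rose (median -0.0637). The chromosome 8 median of each sample, relative to the mean of the 6, was 0.0614, 0.047 and 0.0462 in the parental samples and -0.0391, -0.0541 and -0.067 in the uninduced ones, so the groups did not overlap. The induced monomer line had medians of -0.099 on chromosome 8 and 0.074 on chromosome 14 against the parental line.

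**Figure D5:**
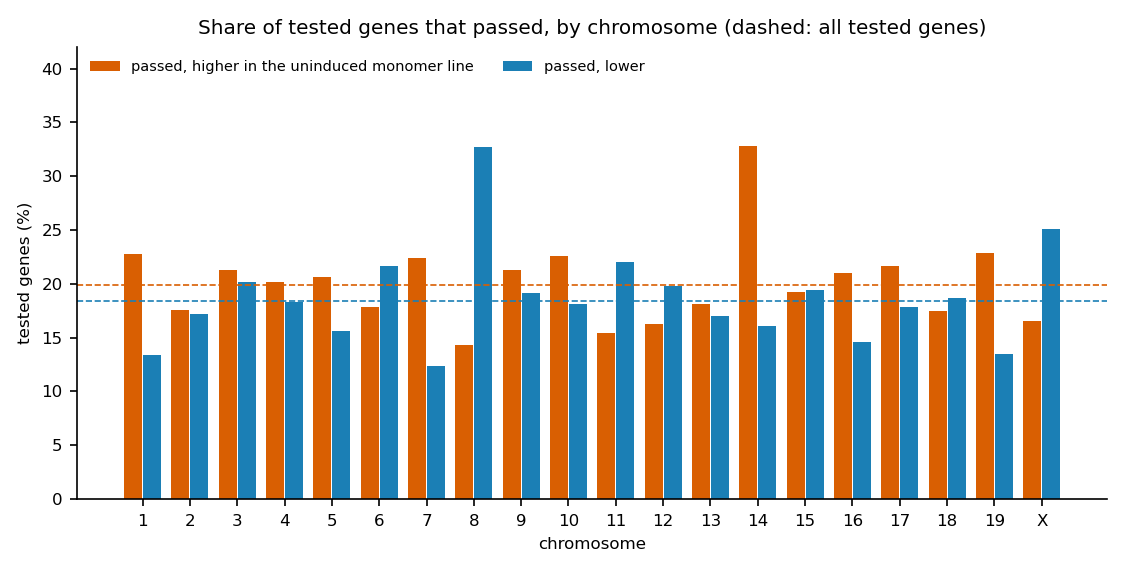
Share of the tested genes of each of chromosomes 1 to 19 and X, in percent (Y, with 4 tested genes, is not drawn), that passed as higher or as lower in the uninduced monomer line; dashed lines give the shares over all tested genes, 19.9% and 18.4%. Of those drawn, chromosome 8 has the tallest bar for lower genes (32.7%) and chromosome 14 that for higher genes (32.8%).

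Genes of the Y chromosome and Xist also differed. Of 4 tested Y genes, 3 fell. Ddx3y, an RNA helicase gene, stood at 5.94, 6.55 and 7.31 CPM in parental samples 1 to 3 and 2.25, 1.86 and 2.03 CPM in uninduced samples 1 to 3 (-1.70 ± 0.19 SE). Eif2s3y, a translation factor gene, stood at 8.42, 13.2 and 11.3 CPM and 5.63, 7.02 and 4.64 CPM (-0.93 ± 0.18 SE), and Uty, a demethylase gene, at 3.24, 4.402 and 3.104 CPM and 1.45, 1.86 and 1.74 CPM (-1.06 ± 0.25 SE). All 3 stayed detectable in every uninduced sample. Xist, the noncoding RNA that coats an inactive X, stood at 0.648, 0.752 and 0.3 CPM and 1.29, 2.06 and 2.42 CPM (1.82 ± 0.38 SE), low in both groups.

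The induced monomer line gives the same line at the parental samples' doxycycline treatment. It shares the parental samples with the comparison above, so its values are set side by side and not counted as separate evidence. Against the parental line 4924 genes passed (36.5%), 2668 (19.8%) higher and 2256 (16.7%) lower. Between the induced and the uninduced monomer line, which differ in doxycycline and in Twist1 level, 799 passed (5.92%), 492 (3.64%) higher and 307 (2.27%) lower with induction.

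Primitive streak genes were low in both states of the monomer line. Their summed level was 37.8 to 42.44 CPM in the induced samples against 43.74 to 51.08 CPM in the uninduced and 208.9 to 249.9 CPM in the parental ones, and 6 of 8 passed as lower in the induced line. T stood at 1.13, 1.45 and 0.96 CPM in the induced monomer samples (-4.44 on the log2 scale against the parental line) and Sp5 at 0.113, 0.223 and 0.213 CPM (-5.57). Primitive endoderm regulators summed to 2466 to 2797 CPM, with 11 of 12 above the parental line, and basement membrane genes to 4922 to 5296 CPM, with 13 of 15 above it. Gata6 stood at 40.95, 45.7 and 50.1 CPM (1.93) and Pdgfra at 41.2, 45.1 and 45.003 CPM (2.23). Naive genes summed to 523.1 to 604.6 CPM, between the uninduced and the parental samples, and 4 of the 14 were lower with induction than without (edgeR, adjusted p under 0.05). Nanog stood at 50.8, 58.8 and 58.2 CPM (-1.90 against the parental line). Between the states of the monomer line Nanog was lower with induction (-0.42, edgeR adjusted p = 3.1e-04), as were Fgf8 (-1.16) and Eomes (-0.36) of the streak list and Dab2 (-0.21) and Lrp2 (-0.32) of the primitive endoderm list. Hprt was higher with induction by 2.46 on the log2 scale (edgeR, adjusted p = 2.2e-11).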

How the data were processed

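RNA was extracted from day 3 embryoid bodies and sequenced from TruSeq mRNA libraries, per the labels. For each sample the authors deposited a table of unscaled read counts by gene symbol. The submitters' processing notes list FastQC, TopHat2 and HTSeq and the builds mm10 and GRCm38, and versions and the strand setting of counting are not given in the sources used here. Dates had replaced 25 symbols in 18 of the 21 files, which were joined by position.

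Groups came from the titles. Genes kept by filterByExpr (count of 10, total of 15) were fitted with edgeR 4.0.16 (limma 3.58.1, R 4.3.3), with TMM factors and 1 mean per group over 9 samples, the 6 compared and the 3 of the induced monomer line. The other 12 samples stayed out of that fit because 1 library labelled TCF12 dimer stands apart and widens the common spread. The quasi-likelihood F-test was used, with Benjamini-Hochberg adjusted p under 0.05 as the threshold. Errors of log2 differences are standard errors from the F statistic, and CPM values were computed from the deposited counts. Floors of 3 counts cover counting error only, since reads were not collapsed to molecules. Tested on simulated counts for the comparison of the uninduced monomer and parental lines (13499 genes), the procedure recovered 88.9%, 93.2% and 100% of 63, 73 and 64 genes changed 1.5-, 2- and 4-fold, and passed 13 of 13299 unchanged genes (0.0978%). The simulation changed far fewer genes than passed in the data and drew counts from the spread fitted to these samples. It held no sample set apart as uninduced sample 1 is, so these rates need not hold for the real comparison.

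Coordinates come from GENCODE M21 (GRCm38), matched by symbol for 13124 tested genes, and promoters from RefSeq. Named genes were the 12 largest rises and falls among passing genes without overlap and with at least 5 CPM in the higher group, the 3 smallest p-values per direction, Twist1, Hprt, and list members. Genes that meet this rule but are not named are not reported here. The samples, lists and rules were chosen with earlier results of these data known. Alternatives were RLE factors, library size only, DESeq2 1.42.0, no filter, a filter of 1 CPM in 3 samples, fits of 6, 20 and 21 samples, a replicate block, thinned counts, and leaving out each sample. A fit without the 7 genes that set uninduced sample 1 apart was chosen after seeing the data.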

Additional observations from a re-analysis of the deposited data

How the results depend on the processing

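Through the alternatives 204 of the genes named above were followed. Of 4069 pairs of such a gene and an alternative, 3952 kept direction and side of the threshold, 112 lost the call, 4 gained one and 1 changed sign. That one is Lars2, at -0.2619 without uninduced monomer sample 1 and up to 3.307 without uninduced sample 3. In the fit of all 21 samples 2854 genes passed, 1504 higher and 1350 lower, while those past 2-fold numbered 813. The call of 22 named genes changed in that fit. Among them were Bmp7, Dusp6, Fn1, Lefty1, Lgr5, Lrp6, Otx2, Tcf12, Ttr, Vim, mt-Co1 and mt-Nd5. With DESeq2 the call of 13 named genes changed, among them Bmp7 and Lgr5. Other counts of passing genes lay within 1.5 times the one reported, from 3826 with DESeq2 to 5363 with the replicate block. Scaling by library size alone moved the median of all genes by -0.0675 and the share of higher genes among those passing from 51.9% to 37.4%.

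Leaving out 1 sample in turn gave 3979 to 5188 passing genes, 2067 to 2711 higher and 1912 to 2549 lower. Past 2-fold there were 780 to 898, of which 450 to 489 were higher and 324 to 415 lower. The lowest count, 3979, came without uninduced sample 2. Leaving out single samples ended the call of Dppa3 (6 of the 9 samples, adjusted p up to 0.24, without uninduced sample 2), Znrf3 (7, up to 0.15, parental 3), Esx1 (8, up to 0.17, parental 2), Dcn (7, up to 0.21, parental 2) and Pax6 (4, up to 0.11, parental 3). Hoxc13 lost its call without any of 4 samples (up to 0.075, uninduced 1), Gpc4 (up to 0.13, parental 3) and Id2 (up to 0.2, uninduced 2) without any of 3, and Sall4 (0.065, parental 3), Slc39a8 (0.093, parental 1) and Tfap2c (0.07, uninduced 2) without either of 2. Lhx1 lost it without parental sample 2 (0.077) and Zic1 without uninduced sample 2 (0.06), while Col1a2 passed without parental sample 3 (0.029) and Spred2 without uninduced sample 3 (0.03).

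Samples of the same replicate number shared little deviation on average, which does not settle whether they were paired. Deviations from the group means correlated at 0.00819 on average over 9 same-numbered pairs (lowest -0.0571) and at -0.00411 over 18 others. Deviations cancel within a group, so the second mean follows from the first and is no separate comparison. With the replicate number as a block 5363 genes passed, 2768 higher and 2595 lower, and 5106 of them also passed without it. Counts thinned to the lowest total gave 4616.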

Other observations

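Hox genes, which pattern the axis of later embryos, were nearly all too low to test. Of the 39 listed, 3 were tested. Hoxa10 rose (log2 difference 2.43 ± 0.46 SE, edgeR adjusted p = 0.00024), Hoxc13 rose (1.03 ± 0.35 SE, adjusted p = 0.025) and Hoxd13 did not pass (-0.073). All 39 together summed to only 7.907 to 9.288 CPM in the parental and 12.77 to 14.48 CPM in the uninduced samples, so these differences rest on low counts. The sample correlations of log2(CPM + 0.5) across genes, which are not independent replicates, were 0.9727 to 0.9796 between uninduced and parental samples and 0.9857 to 0.9913 between uninduced and induced samples of the monomer line. Within the parental line they were 0.9939 to 0.995 and within the uninduced samples 0.9901 to 0.9946.

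Across genes, the log2 difference between the lines had a Spearman correlation of -0.189 with exon length. Single samples' deviations from their own group mean had correlations with exon length between -0.281 and 0.304. The part of length in the differences between the lines was not tested.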
